A study of Drosophila melanogaster with 12 samples.

Results

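The 1233 annotated copies of LTR retrotransposons in a count table of RNA from single fly heads were examined. They were taken from the 5736 transposable element copies that carry a FlyBase insertion identifier, among 24278 rows in all, by the element name in front of the copy number, such as copia in copia{}372. The names counted as LTR elements were a given list of Drosophila LTR retrotransposons, and the copies were summed to 49 elements of the 128 transposable elements in the table. The study is titled as one of SIRT6, tryptophan breakdown and neurodegeneration. Virgin female Drosophila melanogaster ate food with an inhibitor or its solvent from eclosion until they were frozen at 21 days, and each of the 12 libraries came from 1 head. The groups were SIRT6 KO with 100 µM of 680C91, which inhibits TDO2, an enzyme that breaks down tryptophan, SIRT6 KO with dimethyl sulfoxide (DMSO), w1118 with 680C91, and w1118 with DMSO, with 3 libraries each. The w1118 strain is a white-eyed laboratory stock. How the knockout was made, and whether it was crossed into w1118, is not given in the sources used here, so an effect of the knockout and a difference between the stocks in which insertions they carry cannot be told apart.

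LTR retrotransposons are transcribed from a promoter in the long terminal repeat at their 5′ end. The full-length RNA is both the messenger for the Gag and Pol proteins and the template that reverse transcriptase copies into DNA, which is then integrated at another site. In flies, piRNAs bound by Piwi proteins hold these elements silent in the ovary and testis, and siRNAs made by Dcr-2 and bound by AGO2 do so in other tissues. The element gypsy and its relatives, the errantiviruses, also carry an envelope-like reading frame, and several of them are held silent in ovarian follicle cells by piRNAs of the flamenco locus. In mammals SIRT6 is known to bear on the silencing of LINE retrotransposons, which belong to another class.

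The libraries held 24633705 to 44545859 counts, of which 278687 to 1398041 lay on LTR copies. Levels are given as CPM, counts scaled by TMM to 1000000 per library, and a level of 3 counts corresponds to 0.0525 to 0.103 CPM in a library. Sirt6 RNA, the check of the genotype labels, was 2.12 ± 0.224 CPM in KO-labelled libraries and 2.10 ± 0.493 CPM in w1118 (SD, n = 6 each; log2 fold change 0.035, SE 0.12, edgeR adjusted p = 0.893), so the text speaks of KO-labelled libraries. A pair of w1118 libraries stood apart. Replicate 2 with inhibitor had 223.7 CPM of piwi and 862 CPM of lncRNA:flam, the flamenco transcript, against 0.618 to 0.977 CPM of piwi and 3.00 to 7.93 CPM of lncRNA:flam in the other 11 libraries. Yp1, Yp2 and Yp3, which encode yolk proteins, held 9.57% to 13.1% of counts in KO-labelled libraries. In w1118 they held 0.417% in replicate 2 with DMSO, 1.87% in replicate 2 with inhibitor and 18.2% to 21.2% in the other 4 libraries. Photoreceptor, neuron, glia, muscle and head fat body markers were present in every library. The summed level of 5 neuron markers was 2237 to 2500 CPM in KO-labelled libraries and 1406 to 2223 CPM in w1118. Of the 5, 2 were called higher, beside 6.74% of all features. Of the other lists, 1 of 5 glia markers and 1 of 4 hemocyte markers were called lower. Of 8 photoreceptor markers 1 was called in each direction, 1 of 6 head fat body markers was called higher, and 0 of 5 muscle markers were called. The part of these differences in the results below was not tested. In RNA from whole heads, fewer cells of a type and less RNA per cell cannot be told apart.

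LTR copies took a larger part of the counts in KO-labelled libraries. They held 3.07% ± 0.292 of all counts in KO-labelled libraries and 1.15% ± 0.336 in w1118 (SD, n = 6 each), with 2.58% to 3.43% in KO-labelled libraries, 0.778% to 1.55% in w1118 and no overlap. The elements springer and copia accounted for this difference. They made up 68.8% ± 2.54 of the LTR counts in KO-labelled libraries and 18.3% ± 14.9 in w1118. With both left out, LTR copies held 0.952% ± 0.0689 of all counts in KO-labelled libraries and 0.917% ± 0.249 in w1118, a difference far inside the spread between libraries. Copies of the elements outside the LTR set held 0.635% ± 0.234 in KO-labelled libraries and 0.830% ± 0.287 in w1118. These shares are descriptions, since a sum over members chosen with results known was given no test.

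**Figure D1:**
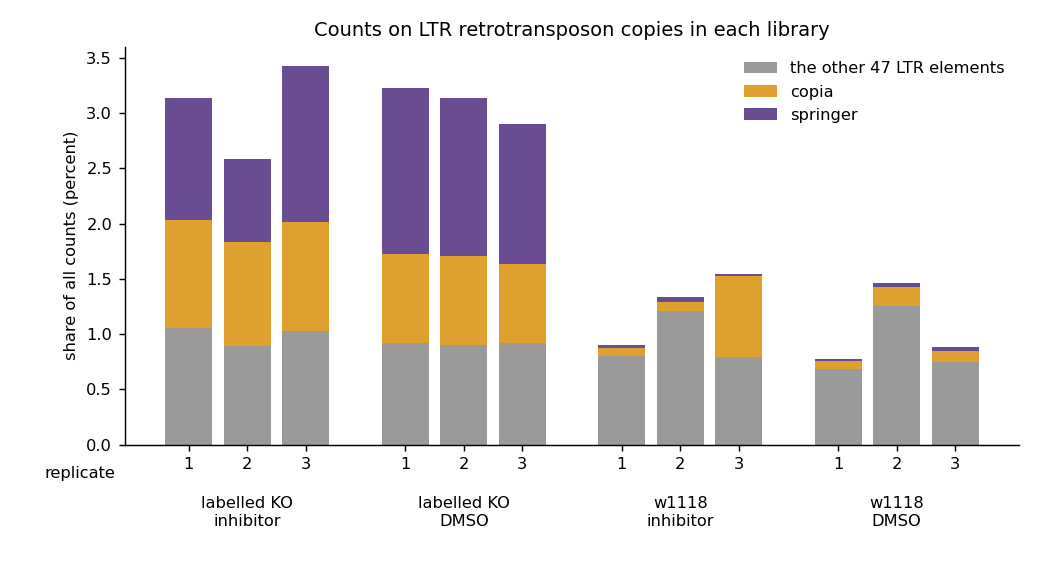
Share of all counts on LTR copies (percent, vertical axis) in each of the 12 libraries, split into springer, copia and the other elements. The bars of the 6 KO-labelled libraries reach 2.58% to 3.43% and those of the 6 w1118 libraries 0.778% to 1.55%, and copia is a large part of the w1118 bars only in replicate 3 with inhibitor.

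Of the 49 LTR elements, all of which passed the filter on low counts, 20 rose and 10 fell in KO-labelled libraries against w1118, averaged over treatments (edgeR, adjusted p under 0.05 over all 14251 genes and elements). In that comparison 11.5% of all features tested were called, 6.74% as higher and 4.71% as lower. Among the other transposable elements in the table, 16 of 73 rose and 6 fell. The change was at least 1 on the log2 scale, or at least a doubling, for 23 of the 30 elements called. The median log2 fold change was 0.19 over the LTR elements and -0.03 over all features. In 23 of the 49 elements the 6 KO-labelled libraries and the 6 of w1118 did not overlap, 14 higher and 9 lower, beside 7.97% of all features (4.8% higher and 3.17% lower). Without both w1118 replicate 2 libraries 35 elements were called, all 30 of the first set among them, and 27.3% of all features. Values are also given below with copies inside genes left out, with only long copies (at least 50% of the length of the longest annotated copy), and with rows of other identifiers that carry the same element name added, which was chosen after seeing the data, wherever these ended a call, turned its direction or moved the log2 fold change by over 1.5 times.

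**Figure D2:**
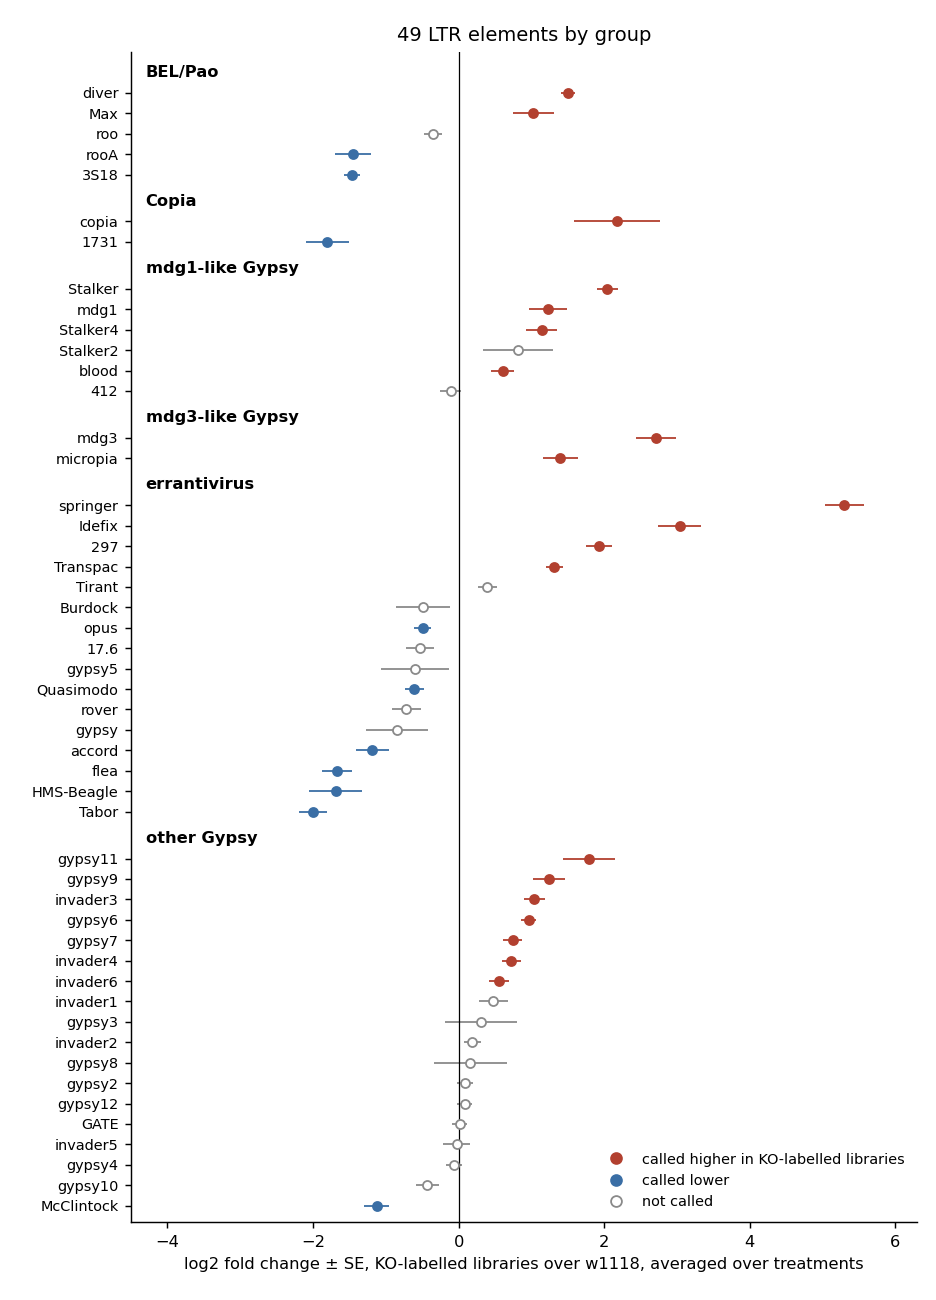
Log2 fold change of each of the 49 LTR elements (horizontal axis, KO-labelled libraries over w1118, averaged over treatments, bars are SE), grouped by kind of element. The changes run from -1.996 for Tabor to 5.30 for springer, and each kind except the mdg3-like pair includes elements on both sides of 0.

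The comparison was also made within each treatment. The 2 comparisons set different libraries against each other, but both came from a single fit of all libraries. They share its scaling, filter and estimate of spread, so they are not independent. Leaving out replicate 2 of w1118 with inhibitor, for example, moved the count with DMSO given below to 22 (5.18% of all features). With inhibitor, 9 elements rose and 6 fell (3.76% of all features were called, 2.36% higher and 1.4% lower), and with DMSO, 14 rose and 4 fell (4.72%, 2.82% higher and 1.9% lower). Both comparisons called 12 elements, which is 80.0% of those called with inhibitor and 66.7% of those called with DMSO, and each of the 12 changed in the same direction in both, 9 up and 3 down. Over all 49 elements 41 had the same sign with inhibitor as with DMSO. The matching overlap and sign counts over all features are not given here, so this agreement cannot be called particular to LTR elements. Leaving out replicate 1 of w1118 with DMSO lowered the count with DMSO to 11 (2.39% of all features), and leaving out both w1118 replicate 2 libraries raised the count with inhibitor to 23 (11.4%).

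Errantiviruses moved in both directions, with 4 of 16 higher, 6 lower and 6 not called. The median log2 fold change of the group was -0.56, and it held both the largest rise and the largest fall of all LTR elements. Springer also had the highest level per length of all LTR elements, on average over the 12 libraries 829 CPM per kb of its longest annotated copy. This first place rests on the KO-labelled libraries, where springer made up 40.2% of LTR counts on average. In w1118 it made up 2.85% and copia 15.4%. Copia followed with a level of 795 CPM per kb and 3S18 with 76.9 CPM per kb. The places below copia depend on the length used. The longest annotated intervals of mdg1 and HMS-Beagle span 32921 and 27676 bases, but their top copies span 7355 and 7060 bases. Their levels per kb are low by this measure, and the third place of 3S18 rests on it.

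Springer, an errantivirus with 22 annotated copies, changed most. It stood at 11276, 7416 and 14330.1 CPM in the 3 KO-labelled libraries with inhibitor and 15129.7, 13822 and 12004 CPM in those with DMSO. In w1118 it stood at 296.6, 444 and 255 CPM with inhibitor and 319.9, 237 and 321 CPM with DMSO. The lowest KO-labelled library was thus far above the highest w1118 library (log2 fold change 5.30, SE 0.27, adjusted p = 1.8e-06). Idefix, which the flamenco locus is known to silence in the ovary, had 59.1 to 128 CPM (median 84.1) in KO-labelled libraries and 6.47 to 21.97 CPM (median 10.3) in w1118 (log2 fold change 3.04, SE 0.30, adjusted p = 0.000157). 297’s levels were 554 to 751 CPM (median 624) in KO-labelled libraries and 131 to 256 CPM (median 154) in w1118 (log2 fold change 1.93, SE 0.18, adjusted p = 0.000116). Transpac had 136 to 215 CPM (median 188) in KO-labelled libraries and 58.8 to 80.5 CPM (median 76.5) in w1118 (log2 fold change 1.32, SE 0.12, adjusted p = 8.37e-05). None of these 4 elements had overlapping groups. When copies inside genes were left out, 297’s sum lost the call at 0.68 (adjusted p = 0.141), and the log2 fold change of Transpac was 4.29. With rows of other identifiers added, that of Idefix was 2.32.

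The 6 errantiviruses that fell covered a wide range of levels. HMS-Beagle had 182 to 1126 CPM (median 504) in KO-labelled libraries and 1795 to 2713 CPM (median 1873) in w1118 (log2 fold change -1.69, SE 0.36, adjusted p = 0.0147). KO-labelled libraries with inhibitor differed among themselves by more than those with DMSO, at 1011, 182 and 1126 CPM against 507, 500.5 and 496 CPM. Tabor fell most, with 25.4 to 42.9 CPM (median 29.3) in KO-labelled libraries and 89.6 to 207 CPM (median 109) in w1118 (log2 fold change -1.996, SE 0.19, adjusted p = 0.000136). Flea had 90.3 to 198 CPM (median 124) in KO-labelled libraries and 371 to 606 CPM (median 423) in w1118 (log2 fold change -1.67, SE 0.20, adjusted p = 0.00062). In these 3 elements the groups were apart by a wide margin. Accord, whose counts lie almost wholly on 1 copy, had 8.996 to 13.7 CPM (median 12.1) in KO-labelled libraries and 17.5 to 56.7 CPM (median 19.98) in w1118 (log2 fold change -1.18, SE 0.22, adjusted p = 0.00793). Quasimodo had 68.7 to 99.9 CPM (median 91.5) in KO-labelled libraries and 94.4 to 179 CPM (median 139) in w1118 (log2 fold change -0.61, SE 0.12, adjusted p = 0.0119). Opus had 452 to 534 CPM (median 474) in KO-labelled libraries and 549 to 828 CPM (median 652) in w1118 (log2 fold change -0.50, SE 0.12, adjusted p = 0.0258). The groups overlapped for Quasimodo and were apart for the other 5, and opus missed the threshold when any KO-labelled library other than replicate 3 with DMSO was left out (adjusted p = 0.0571 to 0.0752). Leaving out copies inside genes ended the call of accord, at -0.34 (adjusted p = 0.825), and of Quasimodo, at -0.33 (adjusted p = 0.124). With only long copies, 1 of 23 for HMS-Beagle, HMS-Beagle turned to 0.68 (adjusted p = 0.17) and flea was at -0.97. The element gypsy itself, source of many classical fly mutations, spread over 89.9 to 229.7 CPM (median 148) in KO-labelled libraries and 104 to 474 CPM (median 257) in w1118 and was not called (log2 fold change -0.84, SE 0.43, adjusted p = 0.242).

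The 2 elements of the Copia group moved in opposite directions. Copia, named for its copious RNA, had 10013, 9353 and 9972 CPM in KO-labelled libraries with inhibitor and 8115, 7800.4 and 6708 CPM with DMSO. In w1118 it had 839, 632 and 8837 CPM with inhibitor and 820.0, 1242 and 1088 CPM with DMSO. A single w1118 library, replicate 3 with inhibitor, was as high as the KO-labelled libraries, and all others were lower than any of them (log2 fold change 2.18, SE 0.59, adjusted p = 0.0414). Without that library the log2 fold change was 3.29 with an adjusted p of 2.98e-05. The call was lost in 10 of the 20 alternatives that gave an adjusted p, with adjusted p up to 0.102. These were leaving out any 1 KO-labelled library, replicate 1 or 3 of w1118 with DMSO or replicate 1 of w1118 with inhibitor, and testing without the filter on low counts. 1731’s levels, for the other member of the group, were 22.4 to 75.01 CPM (median 51.9) in KO-labelled libraries and 106 to 332 CPM (median 148) in w1118, with no overlap (log2 fold change -1.81, SE 0.30, adjusted p = 0.00361). Outside genes the log2 fold change was -3.16.

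Among the 6 mdg1-like Gypsy elements 4 rose and none fell. The element mdg1 had 2574 to 3317 CPM (median 2657) in KO-labelled libraries and 621 to 1955 CPM (median 1184) in w1118 (log2 fold change 1.23, SE 0.26, adjusted p = 0.0133). Stalker had 182 to 222 CPM (median 189) in KO-labelled libraries and 35.9 to 66.7 CPM (median 44.1) in w1118 (log2 fold change 2.04, SE 0.14, adjusted p = 1.49e-05). With copies inside genes left out Stalker lost the call at 0.46 (adjusted p = 0.273), while mdg1 was at 2.75. With only long copies, 1 of 43, mdg1 turned to -0.26 (adjusted p = 0.0318). Stalker4 rose by 1.14 on the log2 scale, and turned to -1.50 (adjusted p = 0.291) with its only long copy. That was 1 of 37 copies, since the longest annotated interval of Stalker4 spans 22723 bases. Blood was called higher, by 0.61, but its direction depended on which rows were summed. It was 1.95 (adjusted p = 0.000259) with copies inside genes left out, -1.77 (adjusted p = 3.04e-05) with only its 2 long copies and -0.23 (adjusted p = 0.241) with rows of other identifiers added. Long was set here against blood{}2438, an annotated interval of 14876 bases that encloses a springer copy. This left out blood{}335 and blood{}959, of 7413 and 7410 bases, with log2 fold changes of 8.42 and 11.57. The value of -1.77 is thus not one for all copies of that length. Blood also lost the call when any 1 library other than replicate 2 of KO-labelled libraries with inhibitor or of either w1118 group was left out (adjusted p = 0.0595 to 0.0864). 412’s levels were 264 to 376 CPM (median 302) in KO-labelled libraries and 262 to 463 CPM (median 306) in w1118 (log2 fold change -0.11, SE 0.15, adjusted p = 0.681). Stalker2 had 146 to 296.7 CPM (median 193) in KO-labelled libraries. In w1118 it stood above them at 501.8 CPM in replicate 2 with inhibitor, and at 47.05 to 77.7 CPM in the other 5 libraries. It was called higher once that high w1118 library was left out, and not with it (log2 fold change 0.82, SE 0.49, adjusted p = 0.32).

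Both mdg3-like elements rose. The element mdg3 had 868 to 1135 CPM (median 1014) in KO-labelled libraries and 95.6 to 332 CPM (median 129) in w1118 (log2 fold change 2.71, SE 0.27, adjusted p = 0.000179). Micropia, its close relative, had 46.6 to 60.5 CPM (median 51.2) in KO-labelled libraries and 14.4 to 40.9 CPM (median 16.4) in w1118 (log2 fold change 1.40, SE 0.24, adjusted p = 0.00456). In both the groups were apart although 1 w1118 library was well above the other 5, replicate 3 with inhibitor for mdg3 and replicate 2 with inhibitor for micropia.

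The 5 BEL/Pao elements were split, with 2 higher, 2 lower and 1 not called. Diver had 63.4 to 81.2 CPM (median 68.2) in KO-labelled libraries and 18.9 to 32.6 CPM (median 24.8) in w1118 (log2 fold change 1.50, SE 0.092, adjusted p = 6.93e-06), and Max rose by 1.02 on the log2 scale with overlapping groups. Outside genes alone, diver lost the call at 1.09 (adjusted p = 0.152) and Max at 0.42 (adjusted p = 0.119), and with rows of other identifiers added diver was at 0.80. Max lost the call when any 1 library was left out (adjusted p = 0.0521 to 0.0969), except replicates 1 and 2 of KO-labelled libraries with DMSO and replicate 2 of either w1118 group, and without replicate 2 of KO-labelled libraries with DMSO it was 0.68 (adjusted p = 0.0462). The BEL element, listed as 3S18, had 226 to 295 CPM (median 246) in KO-labelled libraries and 609 to 819 CPM (median 654) in w1118 (log2 fold change -1.46, SE 0.11, adjusted p = 2.33e-05). RooA had 152 to 252 CPM (median 218) in KO-labelled libraries and 262 to 873 CPM (median 592) in w1118 (log2 fold change -1.45, SE 0.25, adjusted p = 0.0044). The groups did not overlap for diver, 3S18 or rooA. From copies outside genes the log2 fold change was -0.67 for 3S18 and -2.59 for rooA, and with only long copies -2.36 for rooA. Roo, with 140 copies the most numerous element of the set, had 266 to 351 CPM (median 285) in KO-labelled libraries and 282 to 494 CPM (median 382) in w1118 (log2 fold change -0.36, SE 0.12, adjusted p = 0.0918).

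Of the 18 other Gypsy elements 7 rose, 1 fell and 10 were not called. Gypsy11 had 3.48 to 17.8 CPM (median 5.23) in KO-labelled libraries and 1.30 to 2.93 CPM (median 1.84) in w1118 (log2 fold change 1.80, SE 0.36, adjusted p = 0.0102), and with copies inside genes left out it lost the call at 0.27 (adjusted p = 0.586). Gypsy9, invader3, gypsy6, gypsy7, invader4 and invader6 rose by 0.56 to 1.24 on the log2 scale, with no library above 34.7 CPM. With rows of other identifiers added, gypsy6 lost the call at 0.0044 (adjusted p = 0.986) and invader3 at 0.38 (adjusted p = 0.0665). With only long copies, 2 of 33 for invader3, invader3 turned to -0.27 (adjusted p = 0.542) and invader4 lost the call at 0.52 (adjusted p = 0.0551). The sum of the 2 of 4 gypsy7 copies outside genes turned to -4.64 (adjusted p = 0.0139). Invader6 lost the call when any 1 library was left out (adjusted p = 0.0526 to 0.0779), except replicate 3 of KO-labelled libraries with inhibitor and replicate 2 of either w1118 group. McClintock had 2.33 to 4.09 CPM (median 3.56) in KO-labelled libraries and 5.58 to 10.5 CPM (median 6.85) in w1118 (log2 fold change -1.13, SE 0.17, adjusted p = 0.00249), and with rows of other identifiers added it lost the call at -0.26 (adjusted p = 0.156). The 10 elements that were not called changed by -0.43 to 0.47 on the log2 scale. For GATE, at 28.8 to 38.0 CPM (median 33.2) in KO-labelled libraries and 29.97 to 44.3 CPM (median 30.4) in w1118, the log2 fold change was 0.013 with an SE of 0.10.

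**Figure D3:**
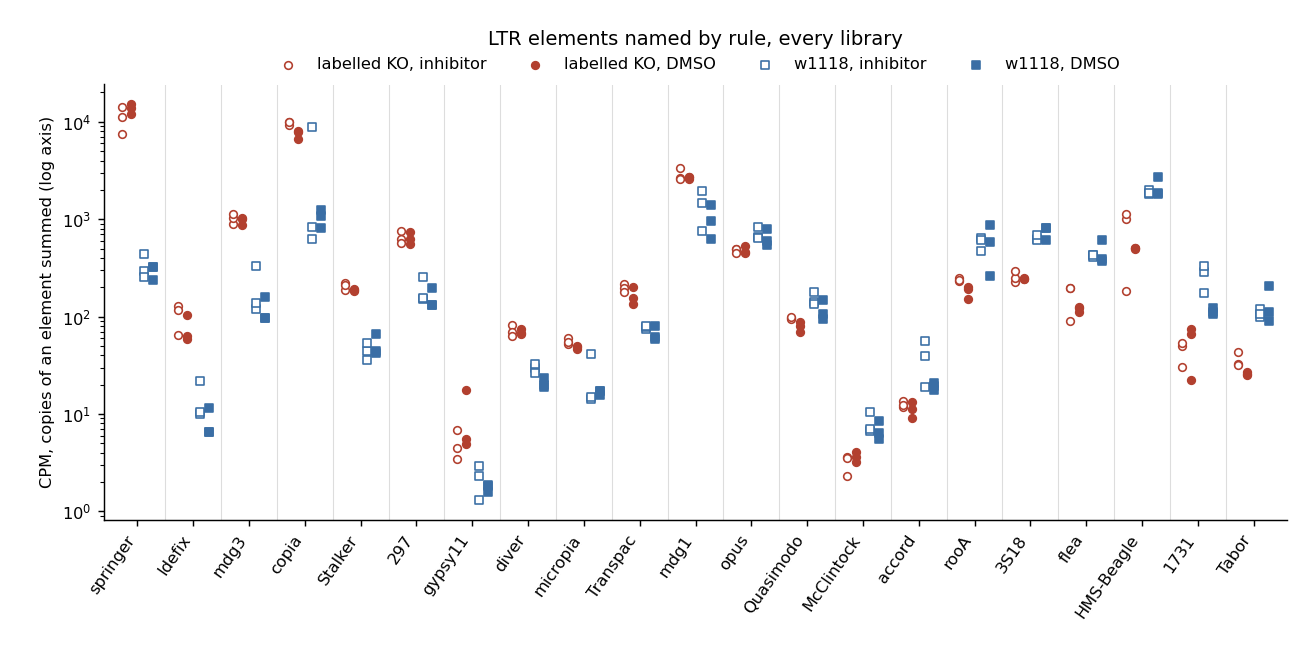
Level of each LTR element named by the rule (CPM, copies summed, log axis) in every library, with 1 point per library. Elements are ordered by log2 fold change, from springer (5.30) to Tabor (-1.996), and the single w1118 copia point among those of the KO-labelled libraries is replicate 3 with inhibitor at 8837 CPM.

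Counts of an element are a sum over copies at different places, so single copies were tested next. Of the 1233 copies, 684 (55.5%) lay outside annotated genes, 443 (35.9%) lay in introns only and 106 (8.60%) touched an exon. They were long, with a median of 2153 bases, beside 293 for copies of the other elements. After rounding, 141 copies had 0 counts in every library, and 706 passed the filter on low counts. The copies of an element share sequence, and how reads with several possible sources were handled is not given in the sources used here, so the split of counts among copies is uncertain. The intervals of 194 copies also overlap that of another LTR copy.

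The test called 279 of the 706 copies, 150 higher and 129 lower in KO-labelled libraries, beside 13.8% of all 16100 features (7.68% higher and 6.14% lower). The median log2 fold change was 0.13 over these copies and -0.04 over all features. Copies of 45 elements were called. In 27 elements some copies rose while others fell, and 16 of the 30 elements called as a whole had at least 1 copy that went the other way. Of the 19 elements that were not called, 15 had a copy that was, and 12 had copies called in both directions. Roo is an example: 9 of its 118 copies tested rose and 38 fell, with no copy holding more than 6.71% of its counts. Of the copies outside genes 33.5% were called (113 of 337), of those in introns only 45.3% (139 of 307) and of those touching an exon 43.5% (27 of 62).

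**Figure D4:**
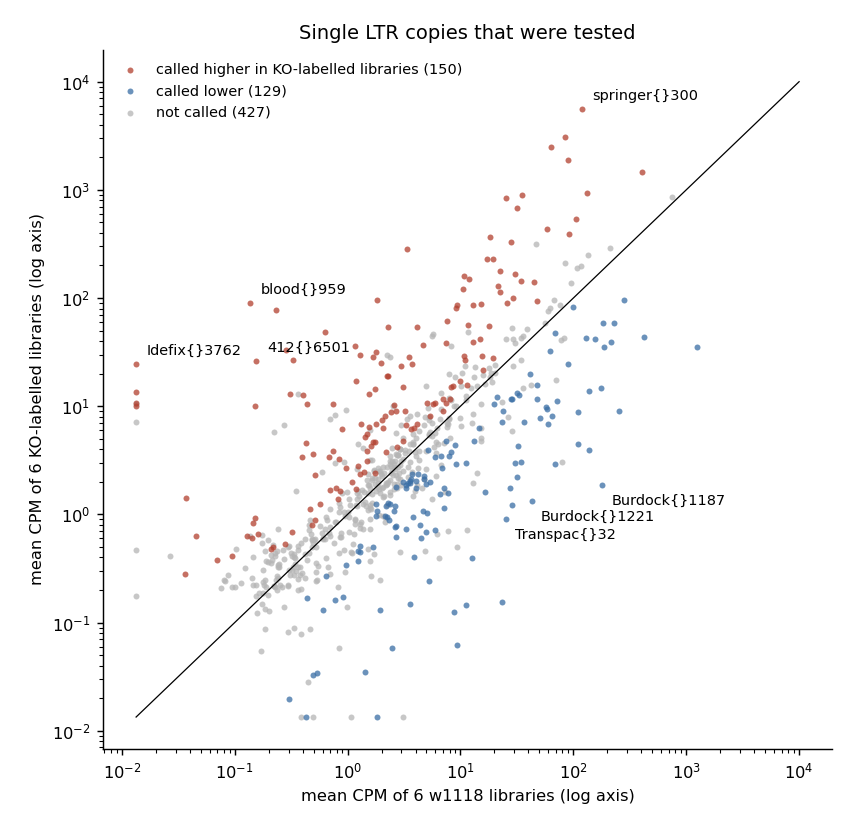
Mean level of each of the 706 LTR copies tested in the 6 KO-labelled libraries (vertical axis) and the 6 w1118 libraries (horizontal axis), in CPM on log axes, with means under 3 counts over the 6 libraries drawn at that limit. Of these copies 150 were called higher, 129 lower and 427 were not called, and a group of copies is far from the diagonal on each side.

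In springer the rise was shared by the copies with most counts. Its top copy, springer{}300 at chr2L:3251549-3259058 (BDGP6, as all positions here) outside genes, held 45.7% of the counts of the element, with 3496 to 7741 CPM (median 5651) in KO-labelled libraries and 85.9 to 149 CPM (median 117) in w1118 (log2 fold change 5.55, SE 0.25, adjusted p = 7.85e-07). The next, springer{}1464 at chr3R:31074284-31081826, lies in an intron of Sox100B on the opposite strand, with 1533 to 3618 CPM (median 3328) in KO-labelled libraries and 68.6 to 139 CPM (median 74.2) in w1118. The host gene Sox100B, which encodes an HMG-box transcription factor, had 2.54 ± 0.553 CPM in KO-labelled libraries and 1.07 ± 0.229 CPM in w1118 (SD, n = 6 each; log2 fold change 1.22, SE 0.17, edgeR adjusted p = 0.00137). Whether counting used strand is not given in the sources used here, so reads from the copy and the gene may not be separable. In all, 8 of the 10 springer copies tested rose and none fell, and the 3 with most counts kept a similar order in both genotypes.

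Copia counts were divided differently. Its top copy, copia{}372 at chr2L:14803935-14809079, had 1413 to 2615 CPM (median 1778) in KO-labelled libraries and 5.13 to 237 CPM (median 69.9) in w1118 (log2 fold change 4.40, SE 0.72, adjusted p = 0.00279), and 13 of 31 copia copies rose while none fell. The copy copia{}298 at chr2L:3073087-3078231, in an intron of toc on the opposite strand, was not called (log2 fold change 0.54, SE 0.76, adjusted p = 0.688). It held 10.1% of copia CPM in KO-labelled libraries and 32.7% in w1118. In KO-labelled libraries copia{}298 did not pass 1330.2 CPM and copia{}372 was at least 1413 CPM. In replicate 3 of w1118 with inhibitor, where copia as a whole was as high, copia{}298 stood at 3339 CPM and copia{}372 at 237 CPM. KO-labelled libraries thus divided their copia counts among the copies differently from that w1118 library.

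**Figure D5:**
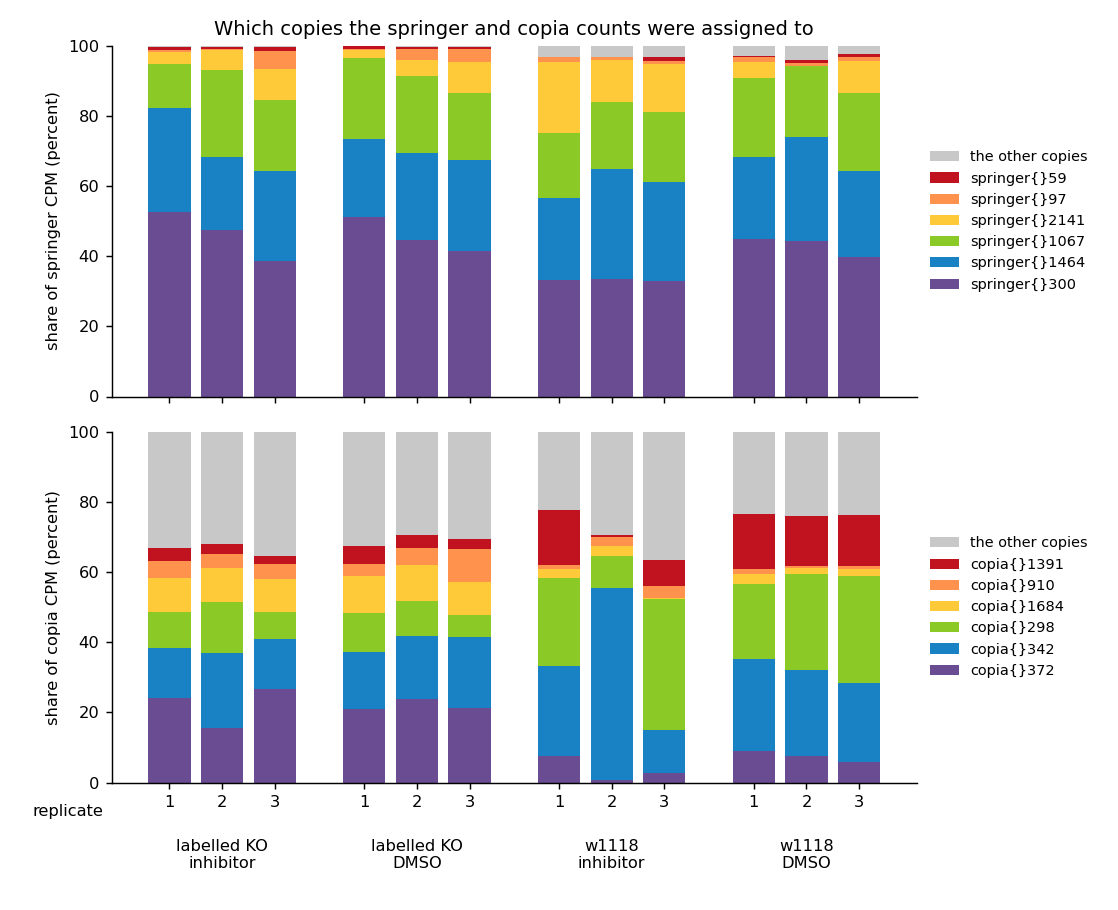
Share of springer CPM (upper panel) and copia CPM (lower panel) assigned to the 6 copies with most counts and to all other copies, in percent, in each library. Copia{}372 takes 15.7% to 26.6% in KO-labelled libraries and 0.813% to 9.02% in w1118.

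Some copies had counts in 1 genotype only. Idefix{}3762, 7375 bases outside genes at chr2R:4642001-4649375, had 19.8 to 31.7 CPM (median 22.8) in KO-labelled libraries and 0 counts in all w1118 libraries. Against a limit of 3 counts over the 6 w1118 libraries, this is at least 1838-fold higher. This fold value and those that follow take the assigned counts as they stand. The split of counts among copies is uncertain, so a 0 may also come from how shared reads were assigned. Transpac{}6616, a copy outside genes at chr2R:1500905-1506153, had 2.65 to 21.5 CPM (median 8.42) in KO-labelled libraries and 0 in w1118, at least 754-fold higher. The short copy mdg1{}1023 at chr3L:17730906-17731510 had 6.46 to 13.9 CPM (median 11.01) in KO-labelled libraries and 0 in w1118, at least 812-fold higher. It abuts mdg1{}1611 in an intron of Ccn, a gene for a secreted matricellular protein, and mdg1{}1611 rose as well (log2 fold change 3.63, SE 0.39, adjusted p = 0.000195). Ccn itself had 20.03 ± 1.11 CPM in KO-labelled libraries and 20.1 ± 3.38 CPM in w1118 (SD, n = 6 each; log2 fold change -0.0036, SE 0.10, edgeR adjusted p = 0.989). In the other direction, Stalker{}213 at chrX:21530415-21531220, named here after its values were seen, had 0 counts in KO-labelled libraries and 1.19 to 2.27 CPM (median 1.88) in w1118, at least 137-fold lower. The only other copy of this kind, Max{}5289, had 9 counts in w1118.

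A pair of blood copies came close to the same pattern. Blood{}959 at chr3L:8498352-8505761, in an intron of CG43163 on the same strand, had 65.7 to 111 CPM (median 86.0) in KO-labelled libraries and 0 to 0.821 CPM (median 0) in w1118. Blood{}335 at chr2L:10156377-10163789 overlaps CG4839 and CG44153 and touches an exon of at least 1 of them. It had 58.8 to 113 CPM (median 74.1) in KO-labelled libraries and 0 to 1.06 CPM (median 0) in w1118. CG4839 fell, with 4.05 ± 0.456 CPM in KO-labelled libraries and 9.12 ± 1.01 CPM in w1118 (SD, n = 6 each; log2 fold change -1.17, SE 0.11, edgeR adjusted p = 9.26e-05). CG44153 was not called, with 37.7 ± 2.42 CPM in KO-labelled libraries and 38.8 ± 6.48 CPM in w1118 (SD, n = 6 each; log2 fold change -0.039, SE 0.11, edgeR adjusted p = 0.852). 412’s copy FBti0215280 at chr2R:23529629-23537147 lies in an intron of bw (brown), which encodes a transporter of eye pigment precursors, and had 22.5 to 31.6 CPM (median 25.1) in KO-labelled libraries and 0 to 0.688 CPM (median 0) in w1118. The RNA of bw had 56.0 ± 2.77 CPM in KO-labelled libraries and 64.9 ± 16.5 CPM in w1118 (SD, n = 6 each; log2 fold change -0.20, SE 0.15, edgeR adjusted p = 0.412).

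Copies that fell showed the reverse. HMS-Beagle{}26 at chrX:2610440-2617499, outside genes, had 20.3 to 46.2 CPM (median 36.7) in KO-labelled libraries and 1094 to 1717 CPM (median 1169) in w1118 (log2 fold change -5.15, SE 0.27, adjusted p = 1.76e-06). It held 48.3% of the counts of its element, and the next HMS-Beagle copies, HMS-Beagle{}333 and HMS-Beagle{}347, were not called and had log2 fold changes of 0.85 and 0.73. Burdock{}1187 at chr3R:4270790-4277202, in an intron of flip and on its strand, had 0 to 4.58 CPM (median 2.16) in KO-labelled libraries and 4.75 to 402 CPM (median 173) in w1118. The host gene flip also fell, with 4.58 ± 0.569 CPM in KO-labelled libraries and 9.71 ± 4.41 CPM in w1118 (SD, n = 6 each; log2 fold change -1.03, SE 0.26, edgeR adjusted p = 0.032). Burdock{}1221 at chr3R:5446016-5452418, in an intron of CG14669, had 0 to 4.42 CPM (median 0.579) in KO-labelled libraries and 7.53 to 93.6 CPM (median 37.5) in w1118, while Burdock as a whole was not called. In both Burdock copies the w1118 libraries spread widely, and the lowest of them came near the highest KO-labelled library. That lowest library was replicate 2 with DMSO, and without it Burdock as a whole was called lower, beside 22.8% of all features called. Transpac{}32 at chrX:3075689-3080937 lies in an intron of kirre, an immunoglobulin-superfamily adhesion gene, on its strand, and had 0 to 3.85 CPM (median 0.347) in KO-labelled libraries and 16.7 to 42.3 CPM (median 22.5) in w1118. Kirre itself rose, with 36.4 ± 1.27 CPM in KO-labelled libraries and 28.7 ± 4.24 CPM in w1118 (SD, n = 6 each; log2 fold change 0.34, SE 0.094, edgeR adjusted p = 0.0436). Transpac as a whole rose, and its top copy Transpac{}1439 at chr3R:27863009-27868256 had 114.9 to 163 CPM (median 147) in KO-labelled libraries and 35.6 to 64.1 CPM (median 41.5) in w1118. The other copies with the largest falls were 3S18{}1090 at chr3L:22099731-22105858, flea{}875 at chr2R:22843075-22844979 and flea{}877 at chr2R:23402664-23407682, none of which passed 1.06 CPM in KO-labelled libraries.

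For several elements 1 copy decided the sum. The copy with most counts held over 50% of them in 18 of the 49 elements. Mdg3{}1683 at chr2L:20272167-20282820 held 92.8% of mdg3 counts, with 816 to 1065 CPM (median 956) in KO-labelled libraries and 74.4 to 317 CPM (median 96.97) in w1118 (log2 fold change 2.90, SE 0.33, adjusted p = 0.000309). Stalker{}1427 at chr3R:26558383-26565637, in an intron of the cell polarity gene scrib and on its strand, held 81.3% of Stalker counts, with 153 to 189.8 CPM (median 163) in KO-labelled libraries and 22.3 to 42.2 CPM (median 28.4) in w1118 (log2 fold change 2.45, SE 0.15, adjusted p = 3.95e-06). Scrib had 547 ± 55.8 CPM in KO-labelled libraries and 441 ± 38.7 CPM in w1118 (SD, n = 6 each; log2 fold change 0.31, SE 0.099, edgeR adjusted p = 0.0753). 1731’s top copy, in an intron of the cell junction gene pyd at chr3R:8898777-8903424, held 82.7% of its counts, with 18.5 to 68.5 CPM (median 42.4) in KO-labelled libraries and 79.2 to 281 CPM (median 119) in w1118. RNA of pyd had 288 ± 26.7 CPM in KO-labelled libraries and 286 ± 30.2 CPM in w1118 (SD, n = 6 each; log2 fold change 0.0055, SE 0.087, edgeR adjusted p = 0.98). Neither scrib nor pyd was called. RooA{}5181 at chr2R:4855816-4869276, outside genes, held 57.2% of rooA counts, with 27.6 to 55.5 CPM (median 42.8) in KO-labelled libraries and 180.1 to 698 CPM (median 439) in w1118 (log2 fold change -3.30, SE 0.33, adjusted p = 0.000133). 297’s counts were more widely spread. Its top copy FBti0019754 at chr2L:8594520-8601516, in an intron of the axon guidance gene Sema1a on the opposite strand, held 21.4%, with 128 to 219 CPM (median 151) in KO-labelled libraries and 7.89 to 14.7 CPM (median 10.5) in w1118. Sema1a itself rose, with 148 ± 15.999 CPM in KO-labelled libraries and 110.0 ± 19.3 CPM in w1118 (SD, n = 6 each; log2 fold change 0.43, SE 0.12, edgeR adjusted p = 0.0466). Of 27 genes that overlap a copy chosen for single description, 3 rose (Sox100B, kirre and Sema1a) and 5 fell (CG4839, flip, CG17574, CG32816 and isoQC), beside 11.5% of all features called.

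In several other elements a leading copy changed by more than the sum. The copy mdg1{}859 at chr2R:19914900-19922254 had 823 to 1098 CPM (median 867) in KO-labelled libraries and 20.6 to 48.7 CPM (median 35.1) in w1118 (log2 fold change 4.68, SE 0.26, adjusted p = 2.65e-06). Idefix{}1360 at chr3R:14236990-14244430 had 19.5 to 45.0 CPM (median 29.8) in KO-labelled libraries and 0.459 to 2.90 CPM (median 1.63) in w1118 (log2 fold change 4.13, SE 0.46, adjusted p = 0.000243). 297’s second copy by counts, FBti0019628 at chrX:11633472-11640484 in an intron of the receptor tyrosine phosphatase gene Ptp10D, had 126 to 188 CPM (median 143) in KO-labelled libraries and 7.27 to 17.99 CPM (median 11.8) in w1118. These 3 copies did not overlap between genotypes. Quasimodo{}1100 at chr3L:22812270-22819638, in the zinc finger gene jim, had 2.89 to 5.87 CPM (median 4.06) in KO-labelled libraries and 22.2 to 53.6 CPM (median 29.8) in w1118 (log2 fold change -2.93, SE 0.19, adjusted p = 8.08e-06). Opus{}292 at chr2L:2112168-2119774 had 40.5 to 71.7 CPM (median 59.7) in KO-labelled libraries and 151 to 237 CPM (median 172) in w1118 (log2 fold change -1.63, SE 0.17, adjusted p = 0.000146). The top copy of 3S18, 3S18{}35 at chrX:3415073-3421199, had 88.0 to 108 CPM (median 94.7) in KO-labelled libraries and 229.7 to 330.0 CPM (median 282) in w1118, a change close to that of the sum (log2 fold change -1.55, SE 0.079, adjusted p = 1.61e-06). Tabor{}6591 at chrX:21806657-21813997 also changed as its element did (log2 fold change -2.04, SE 0.21, adjusted p = 0.000164). In diver the top copy diver{}1372 was not called (log2 fold change 2.09, SE 0.80, adjusted p = 0.118) although the element rose.

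The flamenco locus on X overlaps 34 LTR copies, of which 19 were tested and 7 called, 6 higher and 1 lower. Blood{}2438 at chrX:21716913-21731788 had 3.30 to 4.78 CPM (median 3.83) in KO-labelled libraries and 105 to 203 CPM (median 129) in w1118 (log2 fold change -5.12, SE 0.16, adjusted p = 6.97e-08). Its annotated interval encloses springer{}2141 at chrX:21723964-21731592, which went the other way, with 349 to 1230.4 CPM (median 519.7) in KO-labelled libraries and 0 to 59.8 CPM (median 32.4) in w1118 (log2 fold change 4.66, SE 1.05, adjusted p = 0.0157). Gypsy6{}2633 also rose, with 1.81 to 3.13 CPM (median 2.75) in KO-labelled libraries and 0.779 to 1.16 CPM (median 0.973) in w1118. The share called, 7 of 19, is close to that of all LTR copies tested, 279 of 706, and stands beside 13.8% of all features. The locus as a whole was given no test.

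The inhibitor was set against DMSO within each genotype. No LTR element was called in KO-labelled libraries (0 of 49, 0.00702% of all features, 2 elements at an unadjusted p under 0.05), nor in w1118 (0 of 49, 0% of all features, 8 at an unadjusted p under 0.05). DESeq2 also called 0 in both. The smallest adjusted p was 1 in KO-labelled libraries and 0.556 in w1118. Log2 fold changes with inhibitor ran from -0.93 for gypsy11 to 2.46 for gypsy8 in KO-labelled libraries, with a median of 0.17, and from -0.78 for gypsy3 to 1.75 for Stalker2 in w1118, with a median of 0.31. The median SE of an element was 0.26 in each, so only large changes could have been called. Groups of libraries did not overlap for 9 elements in KO-labelled libraries, all higher with inhibitor (13.2% of all features in either direction, 6.86% higher and 6.34% lower). In w1118 they did not overlap for 7 elements, 6 higher and 1 lower (7.77% of all features in either direction, 3.48% higher and 4.29% lower).

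Gypsy8, singled out after its values were seen, stood at 23.0, 84.5 and 256 CPM in KO-labelled libraries with inhibitor and 18.6, 25.01 and 22.6 CPM with DMSO (log2 fold change 2.46, SE 0.75, adjusted p = 1). In w1118 it stood at 64.4, 33.7 and 26.8 CPM with inhibitor and 23.9, 73.9 and 56.4 CPM with DMSO. The interaction, the difference between the effects of the inhibitor in the 2 genotypes, was called for 0 of 49 elements (0% of all features, 4 at an unadjusted p under 0.05, 0 by DESeq2). For springer the change with inhibitor was -0.31 (SE 0.32) in KO-labelled libraries and 0.18 (SE 0.32) in w1118 on the log2 scale. For copia it was 0.37 (SE 0.80) in KO-labelled libraries and 1.71 (SE 0.82) in w1118, where 1 library decides the value.

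Genes that silence transposons were read from a list of 45 genes of the piRNA and siRNA pathways and of heterochromatin. Of the 44 that were tested 3 were called, 2 higher and 1 lower, beside 11.5% of all features, and the median log2 fold change was -0.03. The gene squ (squash), a piRNA pathway factor, had 2.23 to 9.50 CPM (median 4.49) in KO-labelled libraries and 0.840 to 1.44 CPM (median 1.07) in w1118 (log2 fold change 2.18, SE 0.34, adjusted p = 0.00296). The germline helicase vas had 0.685 to 1.41 CPM (median 0.886) in KO-labelled libraries and 0.310 to 0.703 CPM (median 0.555) in w1118 (log2 fold change 0.81, SE 0.22, adjusted p = 0.0379). Hen1, the methyltransferase that protects small RNA ends, had 1.98 to 2.82 CPM (median 2.42) in KO-labelled libraries and 2.42 to 5.72 CPM (median 4.04) in w1118 (log2 fold change -0.68, SE 0.18, adjusted p = 0.0382). Without both w1118 replicate 2 libraries 12 of the 44 were called, beside 27.3% of all features, and vas was no longer among them.

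The siRNA genes were well expressed and were not called. AGO2, which carries siRNAs, had 162 to 185 CPM (median 177) in KO-labelled libraries and 149.9 to 226 CPM (median 195) in w1118 (log2 fold change -0.13, SE 0.10, adjusted p = 0.463). Dcr-2, which cuts them from double-stranded RNA, had 80.7 to 110.5 CPM (median 98.997) in KO-labelled libraries and 45.0 to 135 CPM (median 110.4) in w1118 (log2 fold change -0.017, SE 0.22, adjusted p = 0.973). Without both w1118 replicate 2 libraries Dcr-2 was called lower, with a log2 fold change of -0.26 and an adjusted p of 0.0483. Piwi had 0.618 to 0.977 CPM (median 0.833) in KO-labelled libraries and 0.683 to 224 CPM (median 0.719) in w1118, where replicate 2 with inhibitor alone was high (log2 fold change -3.15, SE 1.21, adjusted p = 0.129). The same library set the w1118 maximum of lncRNA:flam, with 3.005 to 6.21 CPM (median 3.90) in KO-labelled libraries and 4.04 to 862 CPM (median 6.34) in w1118 (log2 fold change -3.17, SE 1.03, adjusted p = 0.0794). Without it the log2 fold changes were 0.071 for piwi (adjusted p = 0.828) and -0.56 for lncRNA:flam (adjusted p = 0.0359). That library was also the highest of the w1118 libraries for 24 of the 49 LTR elements. Of 12 germline and ovary markers 11 were in the table, 6 of them at a mean under 1 CPM, and their summed level, mostly of orb, was 45.8 to 60.1 CPM in KO-labelled libraries and 38.9 to 54.5 CPM in w1118.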

How the data were processed

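RNA of 12 single fly heads was sequenced, in 4 groups of 3. The deposited values are expected counts per feature, estimated by the authors and not normalized. The submitters' processing notes name Trim Galore 0.6.7, STAR 2.7.9a, Salmon 1.10.1 and the build BDGP6; strand setting and treatment of reads with several sources are not given in the sources used here. Positions and host genes came from the Ensembl 115 annotation (BDGP 6.54).

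Copies were summed per element, and the expected counts were then rounded. Genes and elements passing filterByExpr (minimum count 10) were fitted together with edgeR 4.0.16 (R 4.3.3): TMM scaling, the quasi-likelihood test, 1 coefficient per group, and Benjamini-Hochberg adjustment over all 14251 features. Single copies were fitted likewise with all other features (16100). DESeq2 1.42.0, other scalings and filters, a replicate block and leaving out each library were tried. The script was tested on simulated data. The libraries held 24633705 to 44545859 counts, and values of 3 counts or fewer were treated as not detected. P-values measure the spread between single heads.

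The members and gene lists were chosen with earlier results of these data known. Named in full were the 8 elements with the highest mean, up to 10 rises and 10 falls past the threshold (up to 4 each within a treatment), the copy of each with most counts, and up to 6 rising and 6 falling copies with a mean of at least 1 CPM and no overlap of genotypes. The elements gypsy, Stalker2, 412, roo, GATE and gypsy8, and copies named outside this rule, were chosen after their values were seen. The 162 rows with RR identifiers (0.422% of counts) and 485 transcript rows were left out of the main fits, and 2 insertions without a name were not summed to an element. LTR elements outside the given list, such as ZAM and gtwin, stand among the other elements.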

Additional observations from a re-analysis of the deposited data

Results flagged for a closer look

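In 42 groups of 6 libraries of 1 genotype, 1 for each named element and genotype, a library was singled out by Dixon’s criterion, which sets its gap to the nearest of the others against the whole range of the group. The limit used flags about 1 in 20 groups of independent values with a normal distribution, and 10 were singled out. The CPM were not put on a log scale and the groups share the same libraries, so the 10 cannot be set against that rate. In KO-labelled libraries, mdg1 stood at 3320 CPM in replicate 1 with inhibitor, 3S18 at 295 CPM in replicate 3 with inhibitor and gypsy11 at 17.8 CPM in replicate 2 with DMSO. In w1118, copia stood at 8840 CPM and mdg3 at 332 CPM in replicate 3 with inhibitor. Idefix stood at 22 CPM and micropia at 40.9 CPM in replicate 2 with inhibitor. HMS-Beagle stood at 2710 CPM, Tabor at 207 CPM and flea at 606 CPM in replicate 2 with DMSO. Each of these was the highest of its 6 libraries.

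Besides the copies with an insertion identifier, the table has 71 rows that carry the names of 32 of the LTR elements under another kind of identifier. They were left out of the main fits and entered only where rows of other identifiers are said to be added. They held 0.355% of all counts in KO-labelled libraries and 0.142% in w1118, on average over 6 libraries each.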

How the results depend on the processing

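The count of 30 elements in the averaged comparison lay between 26 and 35 under all 21 alternatives, and between 26 and 34 when 1 library was left out. With DMSO, 18 elements were called, and leaving out 1 library gave 11 to 22. With inhibitor, 15 were called, leaving out 1 library gave 13 to 21, and leaving out both w1118 replicate 2 libraries gave 23. The inhibitor and the interaction gave 0 calls under every alternative run. Called under each of the alternatives were 10 elements in the averaged comparison (springer, Idefix, mdg3, micropia, Transpac, 3S18, flea, Tabor, rooA and 1731’s sum), 6 with DMSO and 5 with inhibitor. The 279 single copies became 258 to 330, or 228 to 304 with 1 library left out. The difference in the share of counts, 1.92 percentage points, was 1.06 with copies inside genes left out, and 1.82 to 2.03 with 1 library left out.

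Over the 21 named elements, 416 of 440 alternative values kept direction and call, 22 kept direction only and 2 reversed. With only long copies, mdg1 reversed to -0.26 and HMS-Beagle to 0.68: long was set against the longest annotated interval of an element, here 32921 and 27676 bases, so 1 of 43 and 1 of 23 copies were kept. With copies inside genes left out, 6 elements lost the call, with log2 fold changes of 0.68 for 297’s sum, 0.46 for Stalker, 0.27 for gypsy11, 1.09 for diver, -0.34 for accord and -0.33 for Quasimodo. With the 71 rows of other identifiers added, an alternative chosen after seeing the data, 27 elements were called, 26 of them in both and in the same direction, and 4 lost the call: McClintock (-0.26), gypsy6 (0.0044), invader3 (0.38) and blood, which turned to -0.23. DESeq2 gave no adjusted p for copia. Same-numbered libraries share only a number: 18 correlations of their deviations ran from -0.153 to 0.173. With the replicate number as a block 31 elements were called in the averaged comparison. Depth limits values near 3 counts, which is 0.0525 to 0.103 CPM.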

Other observations

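KO-labelled libraries were more alike in their LTR levels than the w1118 libraries. The coefficient of variation over the 6 libraries of a genotype had a median over elements of 15.4% in KO-labelled libraries and 25.0% in w1118, and it was larger in w1118 for 38 of the 49 elements. The w1118 libraries include both replicate 2 libraries that stood apart. Of the w1118 libraries, replicate 2 with inhibitor was the highest for 24 elements and replicate 2 with DMSO for 10. The spread over all features is not given here, so this cannot be called particular to LTR elements. The number of annotated copies of an element and the size of its log2 fold change had a Spearman correlation of -0.14 over the 49 elements, and the mean level and the size of the change had one of 0.39. Both are descriptions, since all elements share the same 12 libraries.

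Within introns, copies on the strand of the host gene were called in 53 of 120 cases and copies on the opposite strand in 83 of 180. Among all LTR copies tested 279 of 706 were called, and 13.8% of all features (7.68% higher and 6.14% lower). On the Y chromosome, which females do not carry, 10 LTR copies passed the filter and 5 were called, 3 of them higher, beside the same shares. All have relatives of the same name elsewhere in the genome.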
